A study of Mus musculus with 7 samples.

Results

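The 32 genes described here encode the machinery of NF-κB signalling: 5 DNA-binding subunits, 6 proteins of the IκB family, 7 kinases or kinase subunits, 10 adaptors and 4 feedback regulators. They were chosen by gene symbol from 19736 symbols listed in each file, and all 32 were found and passed the filter on low values, so all are among the 14582 genes tested. RNA-seq was made from regulatory T (Treg) cells sorted from total lung digests of mice with the R576 allele of Il4ra (Il4raR576), the gene of a chain of the IL-4 receptor, and with an EGFP reporter of Foxp3 (Foxp3EGFP). Both groups share this genotype. In the first, 3 libraries hold CCR6+ Foxp3EGFP+ cells, and in the second, the control, 4 libraries hold CCR6– Foxp3EGFP+ cells. The female mice, 5 to 7 weeks old, received 100 µg of ovalbumin by injection, a boost 2 weeks later, and from day 29 a 1% ovalbumin aerosol for 30 min a day on 3 days, and were killed on day 32. Nothing in the labels says if each library is its own mouse or a pool, so p-values measure the spread between libraries, which may be technical. The cells are defined by a sort on reporter and surface marker, and no group with the common form of the receptor is part of the comparison.

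NF-κB proteins bind DNA as dimers of the 5 subunits. In resting cells IκB proteins hold the dimers in the cytoplasm. In the canonical branch an IκB kinase complex, switched on by antigen, cytokine or Toll-like receptors through adaptor proteins, marks IκB for degradation. In the non-canonical branch the kinase NIK leads to processing of the Nfkb2 product, which frees dimers with RelB. In Treg cells the branch from the T cell receptor through BCL10 and MALT1 and the subunit c-Rel are known for their part in Treg development.

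Values are reads per gene after the authors' scaling by library size factors, called normalised counts here. The libraries held 11607780 to 47261246 recovered reads, and the lowest count of any of the 32 genes was 555 reads. Ccr6 itself lay between 2750 and 7309 normalised counts in the CCR6+ libraries and between 271 and 909 in the CCR6– libraries, with no overlap. All 10 Treg markers, led by Ctla4 and Foxp3, and 9 pan T cell markers, led by Lck and Cd3e, were detected in every library. CCR6+ replicate 2 stood apart from the other 6 libraries. It had the fewest reads, and its 10 Treg markers summed to 75582 normalised counts against 182927 to 259445 in the others. Its 10 epithelial markers (led by Sftpc and Sftpa1) summed to 78400 against 1835 to 11700, and its 12 macrophage and monocyte markers (Lyz2 and Csf1r) to 77265 against 931 to 17736. Its 12 endothelial and stromal markers (Pecam1 and Col3a1) summed to 62027 against 5549 to 9963, its 10 dendritic cell markers (H2-Aa and Cd209a) to 25629 against 1045 to 5293, and its 10 granulocyte and mast cell markers (Csf3r and S100a9) to 6669 against 60.2 to 989. The 10 B cell markers (Ms4a1 and Cd79b) summed to between 1742 and 7491 in CCR6+ and between 701 and 4320 in CCR6– libraries. Listed at 0 in at least 1 library were Pax5 and Fcrla among B cell markers, Adgre1, Mrc1, Marco and Siglec1 among those of macrophages, Clec9a, Ccl22 and Siglech among those of dendritic cells, Cxcr2, Siglecf, Prg2, Epx and Mcpt4 among those of granulocytes and mast cells, Foxj1 of epithelium, and Tek, Pdgfra and Pdgfrb of endothelium and stroma. The differences of the members are therefore given with and without this library. In such bulk samples fewer cells of a type and less RNA per cell cannot be told apart.

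The NF-κB genes were well detected in both CCR6+ and CCR6– cells, and no difference of a member between them passed the main test. None of the 32 passed the adjusted threshold of 0.05 in limma on log2(value + 1), with Benjamini-Hochberg adjustment over all genes, where 0% of all genes passed. At an unadjusted p under 0.05 there was 1 of the 32, Ikbke, against 10.6% of all genes. The log2 difference (CCR6+ minus CCR6–) was above 0 for 13 genes and below 0 for 19, with a median of -0.076, against a median of 0.097 and 56.9% above 0 over all genes. No member differed by 1 or more on this log2 scale, which is 2-fold, whereas 4033 of the 14582 genes tested did. For 24 of the 32 (75.0%) the 95% interval of the difference lay within 1 in either direction, against 44.6% of all genes. All genes include ones of much lower level than the members, and no set of like level was compared. Without CCR6+ replicate 2 the split turned to 23 above and 9 below 0, with a median of 0.090, against a median of 0.037 and 53.6% above 0 over all genes, and still none passed, where 0% of all genes did. At an unadjusted p under 0.05 there was then 1 member, Malt1, against 6.89% of all genes. The direction of the list as a whole turned with that library, and none is given for it.

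**Figure D1:**
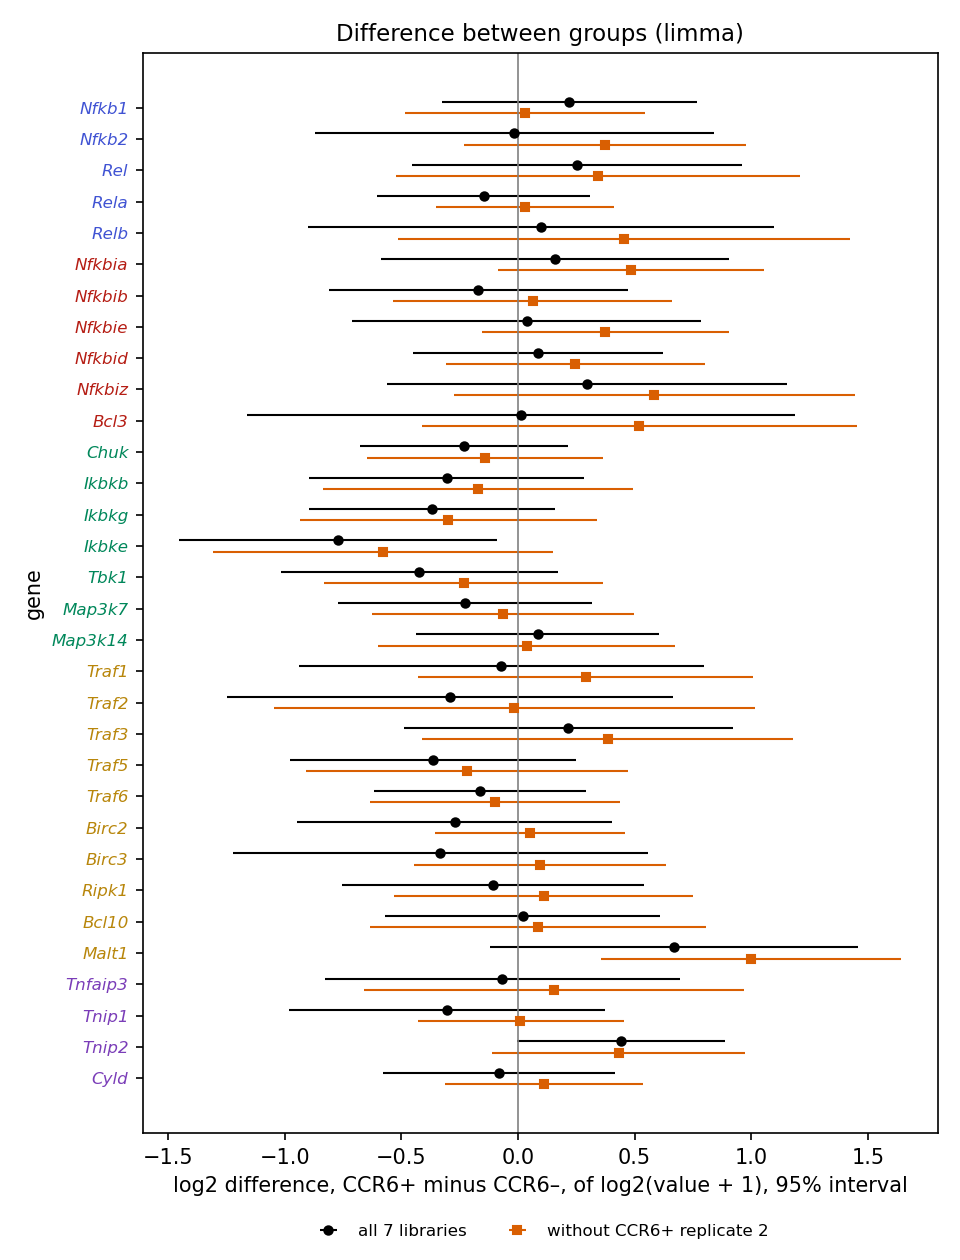
Log2 difference between CCR6+ and CCR6– libraries for each of the 32 genes, with its 95% interval from limma (x axis, log2 scale), from all 7 libraries (black circles, 3 against 4) and without CCR6+ replicate 2 (orange squares, 2 against 4); gene names are coloured by role, from subunits at the top to feedback regulators at the bottom. With all libraries only the interval of Ikbke lies wholly on one side of 0, and without replicate 2 only that of Malt1 does.

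The 5 subunits came first. Nfkb1, which encodes the precursor of p50, stood at 3359, 5430 and 3951 normalised counts in CCR6+ replicates 1 to 3 and at 3464, 3211, 3354 and 4351 in CCR6– replicates 1 to 4. Its highest value was that of CCR6+ replicate 2, the only one of the 32 genes for which this held, and the groups overlapped. Its log2 difference was 0.22 (SE 0.23, limma adjusted p = 0.649), or 0.029 without that library. Nfkb2, for the precursor of p52, stood at 12261, 4775 and 9388 in CCR6+ and at 9769, 7951, 6637 and 9123 in CCR6– libraries. Its CCR6+ values held both the highest and the lowest of the 7. It differed by -0.016 on the log2 scale (SE 0.35, adjusted p = 0.984) and 0.37 without replicate 2.

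Rela, for the transactivating subunit p65, had the narrowest spread among CCR6– libraries, at 8246, 8253, 8706 and 8703 normalised counts. Its CCR6+ values were 8906, 5994 and 8404, so that 2 of the 3 lay near the CCR6– values and replicate 2 below them all. It differed by -0.15 on the log2 scale (SE 0.19, 95% interval -0.60 to 0.31, adjusted p = 0.709), and by 0.030 without replicate 2. Rel, for c-Rel, was more variable in CCR6– cells, at 4308, 2582, 4332 and 2315, against 4039, 3417 and 4202 in CCR6+ cells, which all lay inside that range. Relb, the partner of p52, ranged from 2300 in CCR6+ replicate 2 to 6674 in CCR6+ replicate 1, with replicate 3 at 3498, and stood at 4428, 4382, 3136 and 2531 in CCR6– libraries. The log2 differences of Rel and Relb were 0.25 (SE 0.29) and 0.099 (SE 0.41), with adjusted p of 0.681 and 0.916, and 0.34 and 0.46 without replicate 2.

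Ratios between subunits within a library do not depend on how the library was scaled. The log2 ratio of Nfkb2 to Nfkb1 was 1.87, -0.19 and 1.25 in CCR6+ and 1.50, 1.31, 0.98 and 1.07 in CCR6– libraries, a difference of -0.24 in the means that became 0.34 without CCR6+ replicate 2. That of Relb to Rela was -1.02 ± 0.53 (SD, n = 3) against -1.27 ± 0.44 (n = 4), and that of Rel to Rela -0.98 ± 0.17 (n = 3) against -1.38 ± 0.48 (n = 4). None of the 3 ratios differed by an exact permutation test over all 35 splits (two-sided, p = 0.771, 0.514 and 0.314, each 0.771 when adjusted over the 3), whose smallest possible p is 0.0286. Without replicate 2 the adjusted p was 0.467 for each, in a design that cannot go below 0.0667.

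The IκB proteins fall into cytoplasmic inhibitors and nuclear regulators. Nfkbia, for IκBα, the classical inhibitor that NF-κB itself induces, was the member with the highest level per length, at 13819 ± 2122 normalised counts per kb of annotated exon in CCR6– (SD, n = 4) and 16115 ± 5984 in CCR6+ libraries (n = 3). It stood at 34802, 15686 and 27348 normalised counts in CCR6+ and at 22145, 26527, 22163 and 18162 in CCR6– libraries. CCR6+ replicates 1 and 3 were above, and replicate 2 below, every CCR6– library. It differed by 0.16 on the log2 scale (SE 0.31, adjusted p = 0.810), or 0.48 (SE 0.23, adjusted p = 0.790) without replicate 2, when the groups no longer overlapped.

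The other inhibitors of the cytoplasm, Nfkbib for IκBβ and Nfkbie for IκBε, had log2 differences of -0.17 (SE 0.27) and 0.037 (SE 0.31), or 0.063 and 0.37 without replicate 2. Among the nuclear members, Nfkbiz for IκBζ stood at 12145 ± 4315 (n = 3) in CCR6+ and 9770 ± 2756 (n = 4) in CCR6– cells, or 0.30 apart on the log2 scale (SE 0.36, adjusted p = 0.691) and 0.585 apart without replicate 2. Nfkbid, for IκBNS, known as an aid to Foxp3 induction, stood at 2080 ± 472 against 1940 ± 276, and Bcl3, a coactivator of p50 and p52 dimers, at 5955 ± 3730 against 5227 ± 1384. Their log2 differences were 0.087 and 0.015, and 0.25 and 0.52 without replicate 2. Of the 6 IκB genes, 5 were above 0 with all libraries and 6 without CCR6+ replicate 2, with a median of 0.062 and 0.43. TMM scaling, which moved the median of all genes from 0.097 to 0.008, put 4 of the 6 below 0.

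Among the kinases the log2 difference lay below 0 for 6 of the 7, with all libraries and without CCR6+ replicate 2, and also with equal library totals, with quantile normalization and with each other library left out, except that without CCR6– replicate 4 and with TMM scaling it was below 0 for all 7. The median was -0.31, or -0.17 without replicate 2. Ikbke encodes IKKε, a relative of the IκB kinases known for its part in interferon and NF-κB responses. It stood at 6036, 4167 and 6434 normalised counts in CCR6+ and at 9236, 6643, 9612 and 12698 in CCR6– libraries. Every CCR6+ value was below every CCR6– value, although the highest CCR6+ and the lowest CCR6– library lay close together. The groups did not overlap in this direction for 5.53% of all genes. The log2 difference was -0.77 (SE 0.28, 95% interval -1.45 to -0.091), the largest in size among the 32, and did not pass (limma adjusted p = 0.458). DESeq2 on the recovered reads passed it (adjusted p = 0.0492), as it did for 5.03% of genes with an adjusted p, whereas edgeR did not (adjusted p = 0.314), which passed 0.0137% of genes. Without CCR6+ replicate 2 the difference was -0.58 (SE 0.29, limma adjusted p = 0.811, DESeq2 adjusted p = 0.388), and the groups still did not overlap, as for 8.62% of all genes. With array weights limma gave it an adjusted p of 0.0354, in a fit that passed 17.0% of all genes. That fit gave CCR6+ replicate 3 a weight of 24.2, against 0.363 and 0.208 for replicates 1 and 2. Its CCR6+ mean thus rests mostly on 1 library.

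Tbk1, for the closest relative of IKKε, stood at 4986, 3362 and 5000 normalised counts in CCR6+ and at 5628, 4681, 5945 and 7578 in CCR6– libraries. The groups overlapped through CCR6– replicate 2 alone. Its log2 difference was -0.42 (SE 0.25, adjusted p = 0.522), and -0.23 without CCR6+ replicate 2. Ikbkg, for the regulatory subunit NEMO, stood at 2671, 2113 and 2224 against 3169, 2502, 2603 and 3921, or -0.37 on the log2 scale (SE 0.22, adjusted p = 0.530; -0.30 without CCR6+ replicate 2). Here 2 of the 3 CCR6+ libraries lay below all CCR6– libraries. The catalytic subunits IKKβ and IKKα, from Ikbkb and Chuk, stood at 11022, 7873 and 9880 against 12021, 9083, 11036 and 15781, and at 4463, 3542 and 4048 against 4531, 3970, 4846 and 5561. Their log2 differences were -0.31 (SE 0.24) and -0.23 (SE 0.18), or -0.17 and -0.14 without CCR6+ replicate 2, and the groups overlapped for both. Map3k7, for the upstream kinase TAK1, was at 2875 ± 712 (n = 3) against 3322 ± 424 (n = 4). Map3k14, for NIK, the kinase of the non-canonical branch, was at 2158 ± 131 against 2070 ± 448. Their log2 differences were -0.23 and 0.084, and -0.064 and 0.037 without CCR6+ replicate 2. CCR6– replicate 4 held the highest value of 5 of these 7 genes, against 21.6% of all genes, and without it the difference of Ikbke was -0.62 (adjusted p = 0.702).

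**Figure D2:**
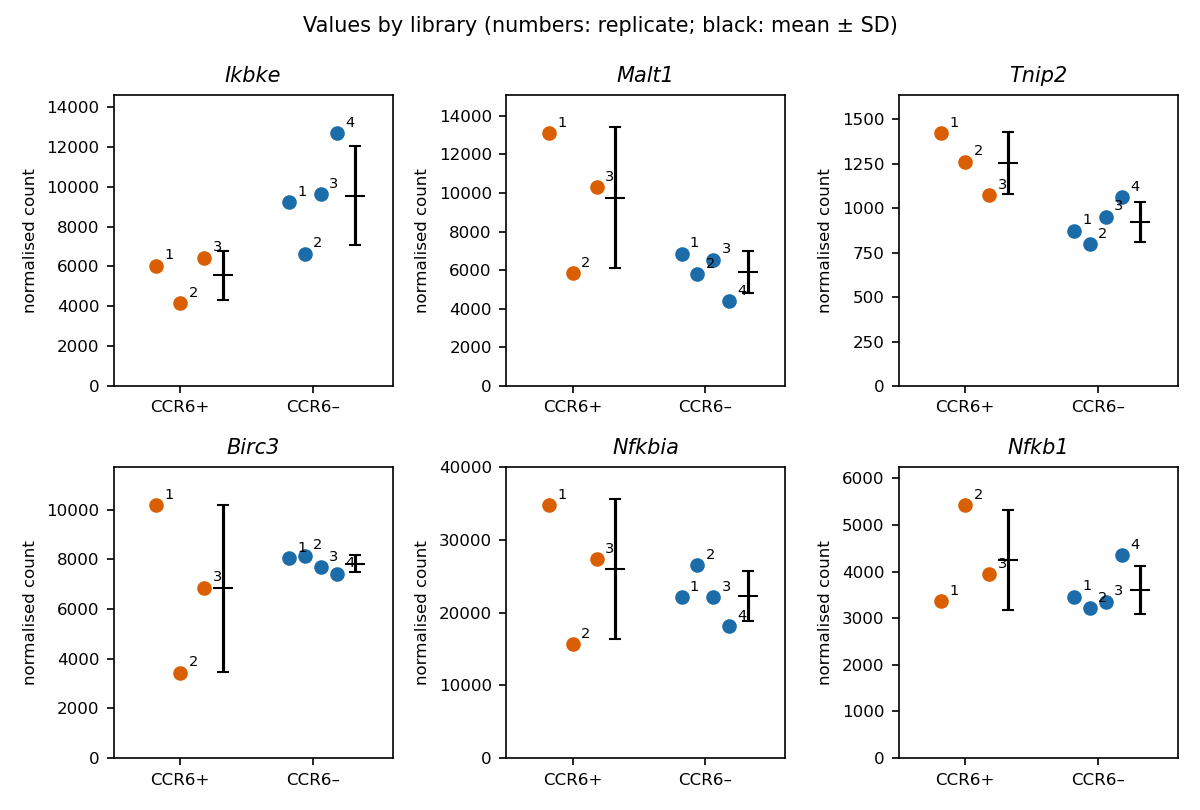
Normalised counts (y axis, linear, from 0) of 6 NF-κB genes in each library; orange points are the 3 CCR6+ and blue points the 4 CCR6– libraries, the small numbers are replicate numbers, and black bars are the mean ± SD. All CCR6+ values of Ikbke lie below and all of Tnip2 above the CCR6– values, Malt1 is above them in CCR6+ replicates 1 and 3 only, and Birc3 and Nfkbia spread more widely in CCR6+ than in CCR6– libraries.

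Among the adaptors Malt1 differed most. It encodes the paracaspase that acts with BCL10 downstream of antigen receptors and cleaves feedback proteins such as A20 and CYLD. Malt1 stood at 13110, 5846 and 10312 normalised counts in CCR6+ and at 6850, 5809, 6549 and 4382 in CCR6– libraries. CCR6+ replicates 1 and 3 were well above all CCR6– libraries, and replicate 2 lay within their range. The difference came to 0.67 on the log2 scale (SE 0.33, 95% interval -0.12 to 1.46, limma adjusted p = 0.491). Without replicate 2 it was 1.00 (SE 0.26) with no overlap, and again did not pass (limma adjusted p = 0.536, edgeR adjusted p = 0.351, a test that passed 0.0137% of genes). DESeq2 without that library passed it (adjusted p = 0.00275), as it did for 1.50% of genes with an adjusted p. With all libraries DESeq2 gave an adjusted p of 0.123, and limma with array weights 0.0247. The weighted fit passed 17.0% of all genes, and its CCR6+ mean rests mostly on CCR6+ replicate 3. The Treg markers, which sum to 259445, 75582 and 214932 in CCR6+ replicates 1 to 3, rank these libraries as Malt1 does, and their part in the Malt1 values was not tested. Bcl10, the partner of Malt1, stood at 4022 ± 566 (n = 3) and 4025 ± 894 (n = 4), 0.020 apart on the log2 scale and 0.086 without replicate 2.

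Birc2 and Birc3 encode the ubiquitin ligases cIAP1 and cIAP2. They lie side by side on chromosome 9, 11.6 kb apart, and are similar in sequence, so reads may not have been fully separable. Birc3 was tight in CCR6– cells, at 8049, 8157, 7699 and 7431 normalised counts, and wide in CCR6+ cells, at 10196, 3435 and 6859. Its log2 difference turned from -0.33 (SE 0.37) to 0.095 (SE 0.22) without CCR6+ replicate 2. That of Birc2 turned from -0.27 to 0.051. The TRAF adaptors link receptors of the TNF family, and Traf6 those of the IL-1 and Toll-like families, to the kinases. Traf5 stood at 2149, 1558 and 2066 in CCR6+ and 2221, 2193, 2092 and 3536 in CCR6– libraries, where replicate 4 was far above the rest, and differed by -0.36 on the log2 scale (SE 0.25, adjusted p = 0.565), or by -0.22 without CCR6+ replicate 2. The log2 differences of Traf1, Traf2, Traf3 and Traf6 were -0.071, -0.29, 0.22 and -0.16, all with overlapping groups, and 0.29, -0.015, 0.385 and -0.098 without CCR6+ replicate 2. Ripk1, a scaffold kinase at the TNF receptor, stood at 3626 ± 1304 (n = 3) against 3767 ± 464 (n = 4), -0.11 apart on the log2 scale and 0.11 without replicate 2. Of the 10 adaptors 3 were above 0, and 7 without replicate 2.

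The feedback regulators remove or block ubiquitin chains on the pathway. Tnfaip3, for the ubiquitin-editing enzyme A20, had the second highest level per length of the 32 and stood at 44786 ± 11447 normalised counts in CCR6+ (n = 3) and 47290 ± 12904 in CCR6– cells (n = 4), -0.067 apart on the log2 scale (SE 0.32) and 0.155 without replicate 2. Cyld, for a deubiquitinase, stood at 11022 ± 2520 against 11457 ± 764, or -0.080 on the log2 scale and 0.11 without replicate 2. Tnip1 and Tnip2 encode the A20-binding proteins ABIN-1 and ABIN-2. Tnip1 was tight in CCR6– cells, at 6726, 6165, 6249 and 6178, and stood at 7141, 3310 and 5693 in CCR6+ cells. Its log2 difference turned from -0.30 (SE 0.28) to 0.011 (SE 0.18) without CCR6+ replicate 2.

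Tnip2 was the member whose groups were apart in the upward direction. It stood at 1424, 1262 and 1074 normalised counts in CCR6+ and at 874, 796, 954 and 1063 in CCR6– libraries, so that CCR6+ replicate 3 was only just above CCR6– replicate 4. The groups did not overlap upwards for 7.96% of all genes. It differed by 0.44 on the log2 scale (SE 0.18, 95% interval -0.003 to 0.89, limma adjusted p = 0.471), and 0.43 (SE 0.22) without CCR6+ replicate 2. In all, 2 of the 32 genes had groups that did not overlap, 1 in each direction, a share below the 13.5% of all genes. Without replicate 2 there were 4, namely Nfkbia, Malt1 and Tnip2 upwards (10.5% of all genes) and Ikbke downwards, against 19.2% of all genes in either direction. With another library left out, which cannot bring Tnip2 and Ikbke together, they were joined by 5 members without CCR6+ replicate 1 (38.1% of all genes), namely Ikbkg, Traf5, Birc3, Ripk1 and Tnip1, and by 4 without CCR6– replicate 2 (20.0%), namely Chuk, Ikbkb, Tbk1 and Traf6, all lower in CCR6+ cells. Traf5 joined them without CCR6– replicate 3 (17.6%), and no member did without CCR6+ replicate 3 (21.2%), CCR6– replicate 1 (17.2%) or CCR6– replicate 4 (16.5%).

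**Figure D3:**
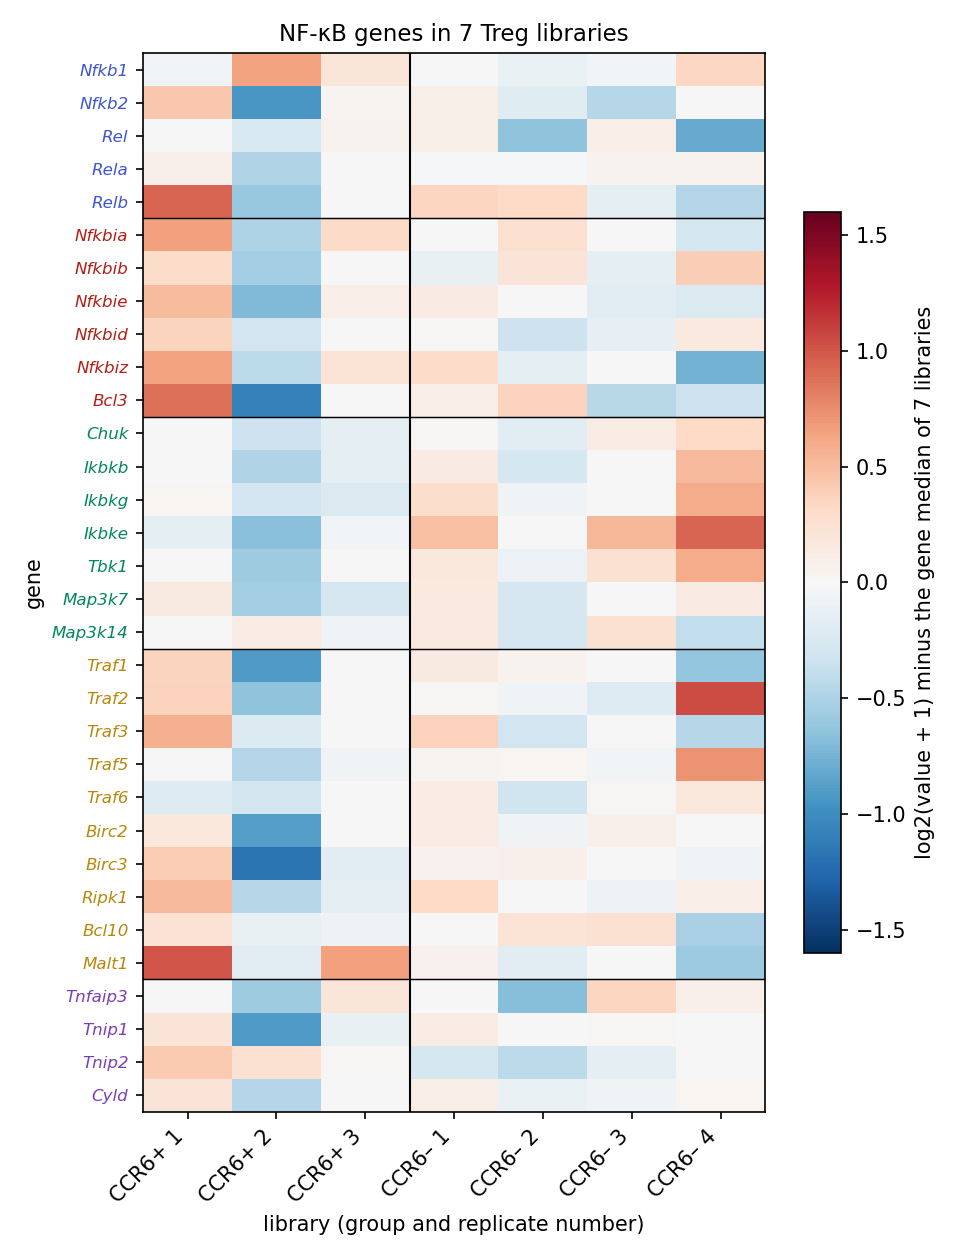
Heat map of the 32 genes (rows, grouped by role from subunits to feedback regulators) in the 7 libraries (columns); the colour gives log2(value + 1) minus the median of that gene over the 7 libraries, red above and blue below. CCR6+ replicate 2 is the lowest library for 21 genes and CCR6+ replicate 1 the highest for 17, and CCR6– replicate 4 stands out in several kinases and in Traf2 and Traf5.

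Much of the spread in these genes lay between libraries of the same group. CCR6+ replicate 2 was the lowest of the 7 libraries for 21 of the 32 genes (65.6%), against 22.8% of all genes, and the highest for 1, against 43.6% of all genes. CCR6+ replicate 1 was the highest for 17 of the 32, against 1251 of the 14582 genes tested and 4 of the 10 Treg markers. Both held for 12 genes (37.5%, against 3.04% of all genes): Nfkb2, Rela, Relb, Nfkbia, Nfkbie, Bcl3, Traf1, Birc2, Birc3, Ripk1, Tnip1 and Cyld. This order was also that of 40.0% of the 10 Treg markers and 22.2% of the 9 pan T cell markers. Among them CCR6+ replicate 2 was the lowest library for 100% and 88.9%. Of the tested genes in the 3 other pathway lists below, 13.3% to 23.8% had the order. No marker of the other cell types did (0%). The summed Treg markers had the same extremes, 259445 in CCR6+ replicate 1 and 75582 in replicate 2, and the part of the Treg share in this order was not tested. No kinase gene was among the 12, although CCR6+ replicate 2 was the lowest library for 6 of the 7 kinase genes (85.7%). CCR6+ replicate 1 was the highest for 0 of them.

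NF-κB motifs near the start were searched in all members. The RefSeq promoter table (GRCm38.p6, the assembly of mm10) held windows for 27 of the 32 genes, each of 300 bases with 250 before and 50 after a start. The κB consensus motif of 10 letters (3 G, a purine, any base, A or T, a pair of pyrimidines and a pair of C) was searched on both strands, counting overlapping matches at each position. At least 1 match was found for 12 of the 27 genes (44.4%), against 5.14% of all genes in the table, or in 37.8% of 37 windows against 4.51% of all windows. Among the 12 genes with the shared order, 11 had a window and 6 of them a match, and among the other members 6 of 16 did. A narrower form of the motif (3 G, any pair of bases, 3 T and a pair of C), which overlaps the consensus in part, was found for 29.6% of the matched members and 1.89% of all genes. It was found for 27.3% of the matched genes with the shared order and for 31.2% of the other matched members. These are matches of letters and not tested sites. The 150 bases in front of a start are shown for 4 of the genes with the shared order, a subunit, a pair of inhibitors and a feedback regulator, 5′ to 3′ on the strand of the gene, with matches of the consensus in capitals.
Nfkb2 (chr19:46304587-46304736, plus strand): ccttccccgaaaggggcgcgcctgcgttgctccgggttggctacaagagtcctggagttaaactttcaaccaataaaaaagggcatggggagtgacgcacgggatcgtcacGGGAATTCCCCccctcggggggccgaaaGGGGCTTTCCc
Nfkbia (chr12:55492648-55492797, minus strand): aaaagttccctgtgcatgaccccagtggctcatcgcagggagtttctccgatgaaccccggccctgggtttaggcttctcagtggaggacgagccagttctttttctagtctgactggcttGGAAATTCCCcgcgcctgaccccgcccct
Nfkbie (chr17:45555550-45555699, plus strand): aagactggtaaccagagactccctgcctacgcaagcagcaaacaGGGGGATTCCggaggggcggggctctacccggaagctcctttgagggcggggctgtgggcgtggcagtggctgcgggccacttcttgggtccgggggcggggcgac
Tnip1 (chr11:54962941-54963090, minus strand): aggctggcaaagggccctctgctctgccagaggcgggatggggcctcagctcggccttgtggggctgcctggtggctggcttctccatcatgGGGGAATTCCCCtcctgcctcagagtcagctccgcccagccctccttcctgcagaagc

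In Nfkb2 the capitals mark 3 matches, of which the first 2 overlap, beginning 39, 38 and 11 bases before the start. In Nfkbia the match begins 29 bases before it and in Nfkbie 106 bases before it. In Tnip1 the run holds 3 overlapping matches, the first beginning 58 bases before the start. The windows of Ikbke and of Tnip2, the members whose groups did not overlap, held no match.

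Per length of annotated exon the 32 genes spanned a wide range. In CCR6– cells Nfkbia (13819 normalised counts per kb) and Tnfaip3 (6544) were followed by Rela (2760), Bcl3 (2112), Nfkbiz (1947) and Nfkb2 (1826). The lowest were Map3k14 (316), Traf3 (300) and Nfkb1 (298). The order at the top, Nfkbia, Tnfaip3 and then Rela, was the same in CCR6+ cells, at 16115, 6198 and 2529. The length counts every annotated exon of a gene, so genes with long rare transcripts appear lower.

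**Figure D4:**
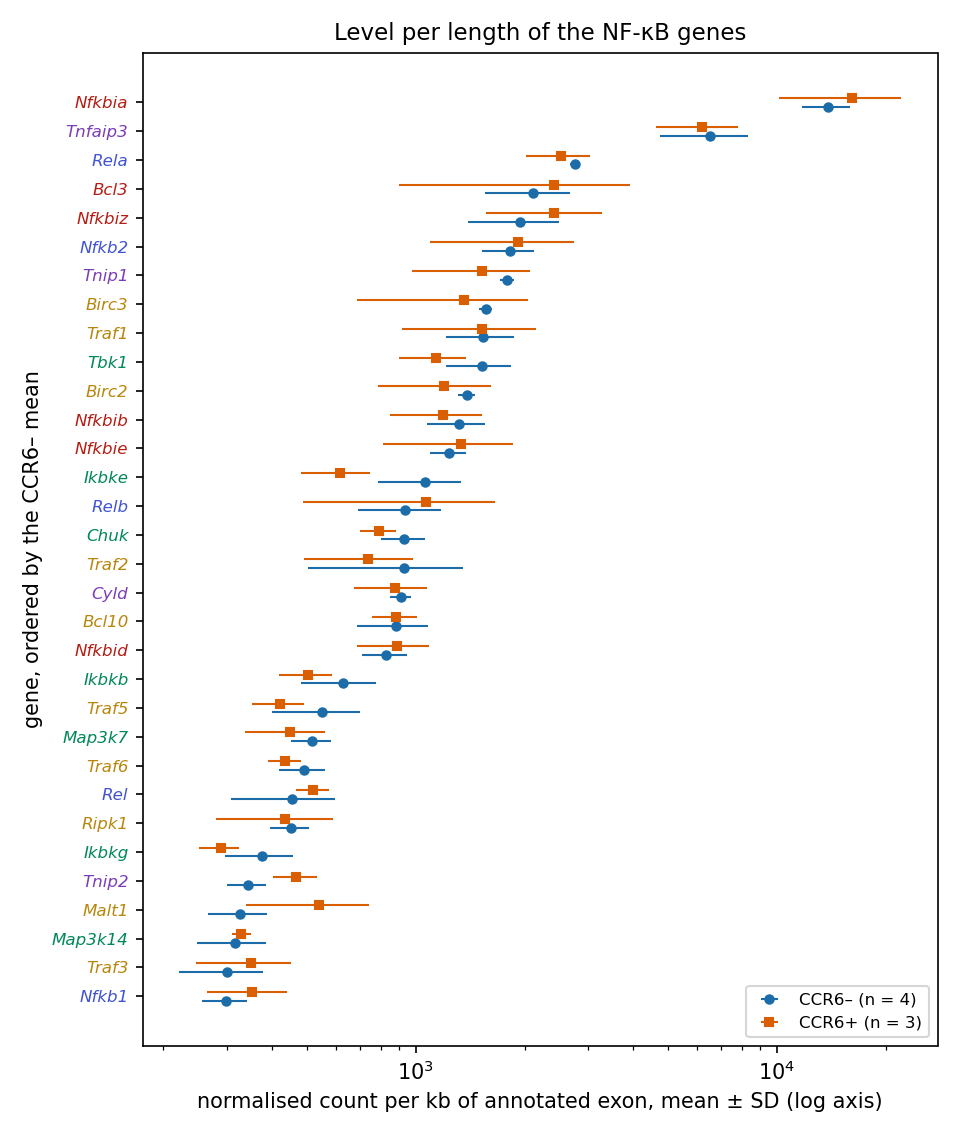
Normalised counts per kb of annotated exon (x axis, log scale) for the 32 genes, ordered by the CCR6– mean; blue circles are CCR6– (n = 4) and orange squares CCR6+ libraries (n = 3), and bars are ± 1 SD. Nfkbia and Tnfaip3 stand above all others in both groups, and the blue circle of Ikbke lies at 1059 against 615 for its orange square.

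Positions on mm10 are those of GENCODE mouse release 21, 1-based, and all members named with a position are annotated as protein coding. Ikbke lies on chromosome 1 from 131254343 to 131279606 (minus strand), Tnip2 on chromosome 5 from 34496087 to 34513991 (minus strand), Malt1 on chromosome 18 from 65430938 to 65479067 (plus strand), Nfkbia on chromosome 12 from 55489410 to 55492647 (minus strand) and Nfkb2 on chromosome 19 from 46304320 to 46312385 (plus strand). Relb and Bcl3 are neighbours on chromosome 7, 179 kb apart. Other annotated genes overlap 18.1% of the exonic bases of Nfkb2, 16.4% of those of Nfkbib, 9.01% of Ripk1, 6.51% of Bcl3, 5.91% of Traf5, 5.15% of Ikbkg, 2.48% of Ikbke and 2.06% of Map3k14, and reads of such overlaps may not have been separable.

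Around the 32 genes the pathway was read from 3 further lists. Of 30 upstream signalling genes, all tested, none passed in limma and 11 were above and 19 below 0, with a median of -0.093. Without CCR6+ replicate 2 the split turned to 16 above and 14 below, with a median of 0.028. Those of smallest p were Fadd, a death-domain adaptor, at 208 ± 35.2 (n = 3) against 143 ± 10.6 (n = 4), Card10, Prkcb and Irak3. Prkcb, for a protein kinase C that acts in B cell receptor signalling, stood at 3928 ± 791 against 5809 ± 1027 (log2 difference -0.57, SE 0.23, adjusted p = 0.471; -0.39 without replicate 2). Irak3, for an inhibitory member of the IRAK family, stood at 629 ± 31.3 against 467 ± 76.5 (0.44, SE 0.19, adjusted p = 0.473; 0.41 without replicate 2). Card10, for a scaffold protein known from non-blood cells, stood at 59.3, 550 and 102 in CCR6+ libraries and at 37.3 or less in CCR6– libraries, with 0 in replicate 4. Its peak in CCR6+ replicate 2 coincides with the epithelial and endothelial markers of that library given above, and the part of those cells was not tested.

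Of 22 receptors that feed the pathway, 21 were tested. None passed in limma. In DESeq2 2 did, or 3 without CCR6+ replicate 2, against 5.03% and 1.50% of genes with an adjusted p. The difference was above 0 for 15 and below 0 for 6, where 56.9% of all genes were above 0. Without that library it was so for 19 and 2, where 53.6% of all genes were above 0. The medians were 0.33 and, without that library, 0.70, against 0.097 and 0.037 over all genes. The groups of 6 did not overlap upwards and of 1 downwards, against 7.96% and 5.53% of all genes, and of 8 and 1 without that library, against 10.5% and 8.62%. Marker lists of cells other than T cells also had medians above 0 without that library, from 0.64 for epithelium to 2.19 for granulocytes and mast cells. The part of such cells in the receptor values was not tested. Il18r1, a chain of the IL-18 receptor, stood at 2447, 2068 and 2422 normalised counts in CCR6+ and at 1450, 1113, 938 and 687 in CCR6– libraries. All 3 CCR6+ libraries were above all CCR6– libraries and close to each other. The log2 difference was 1.19 (SE 0.28, limma adjusted p = 0.397, DESeq2 adjusted p = 0.00599). Without CCR6+ replicate 2 it was 1.27 (limma adjusted p = 0.546, DESeq2 adjusted p = 0.00950). Il1r1, for the signalling receptor of IL-1, stood at 975, 1638 and 472 in CCR6+ and at 76.6, 190, 132 and 123 in CCR6– libraries, 2.87 apart on the log2 scale (SE 0.50, limma adjusted p = 0.302, DESeq2 adjusted p = 4.07e-06). It was highest in CCR6+ replicate 2, and without that library the difference was 2.44 (limma adjusted p = 0.402, DESeq2 adjusted p = 9.60e-05). Tlr2 and Tlr4, receptors for bacterial products, stood at 978 ± 453 and 797 ± 339 (n = 3) against 354 ± 224 and 281 ± 157 (n = 4). In CCR6+ replicates 1 to 3 Tlr2 was at 716, 1501 and 717 and Tlr4 at 944, 1037 and 409. Both were highest in CCR6+ replicate 2, as were the summed macrophage and monocyte markers, whose part was not tested. The log2 differences of Tlr2 and Tlr4 were 1.63 and 1.59, or 1.27 and 1.34 without that library.

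Of 40 genes known as NF-κB targets, 38 were tested. None passed in limma. In DESeq2 1 did, Mmp9 (adjusted p = 0.0107), and none without CCR6+ replicate 2, against 5.03% and 1.50% of genes with an adjusted p. The difference was above 0 for 28 and below 0 for 10, with a median of 0.58, and 35 were above 0 without CCR6+ replicate 2, with a median of 0.78. Over all genes these medians were 0.097 and 0.037, and 56.9% and 53.6% were above 0. The groups of 6 targets did not overlap upwards and of 0 downwards, against 7.96% and 5.53% of all genes. Without CCR6+ replicate 2 they numbered 14 and 0, against 10.5% and 8.62%. Markers of other cells had medians above 0 in the same comparison without that library, 1.77 for macrophages and monocytes, 2.19 for granulocytes and mast cells, 1.48 for B cells, 1.20 for dendritic cells, 1.05 for endothelium and stroma and 0.64 for epithelium. Their part in the values of the targets was not tested. The 4 of smallest p were Ccl20, Mmp9, Ccnd1 and Ccl3. Ccl20, the ligand of CCR6, stood at 24.9, 11.4 and 38.6 in CCR6+ libraries and was listed at 0 in 3 CCR6– libraries and at 9.12 in CCR6– replicate 2. Its count was at most 38 reads in any library, so these values lie near the floor. Mmp9, a matrix protease of myeloid cells, and Ccnd1, a cyclin with low levels in lymphocytes, were at 1986 and 1226 in CCR6+ replicate 2 and at 448 or less and 125 or less in the other libraries. For Ccl3, a chemokine, the groups overlapped. In CCR6+ replicate 2, 34.2% of the tested targets had their highest value, against 43.6% of all genes.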

How the data were processed

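Treg RNA-seq libraries, 3 CCR6+ and 4 CCR6–, were grouped by their titles. Amplified cDNA (SMART-Seq v4) was turned into libraries with KAPA Hyper Prep reagents, per the labels' protocols, which mention no strand marking. The submitters' processing notes list, without roles, the mm10 build and the tools DESeq2 1.6.3, HTSeq 0.6.1p1 and STAR 2.5.1b. Annotation, filters and strand use: not given in the sources used here. The deposited signal holds reads per gene scaled by the authors with library size factors, as the values show: 100% are whole multiples of a step per library, within 0.001 reads. Depth was 11607780 reads in CCR6+ replicate 2 and at least 27520975 elsewhere. Members and lists were chosen with earlier results of these data known.

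Genes with at least 10 in at least 3 libraries were kept (14582). Limma 3.58.1 in R 4.3.3 tested log2(value + 1) without covariates (two-sided), adjusted by Benjamini-Hochberg at 0.05. This scale understates changes of low genes. Intervals use limma's moderated standard errors (SE). Exact permutation tests used scipy 1.17.1. EdgeR 4.0.16 and DESeq2 1.42.0 were run on the recovered reads. Both, and the main limma fit, were also run on simulated counts of 7 libraries, with an outcome not given here. The other settings were not simulated. Other settings were pseudocounts 0.5 and 8, no filter, a mean of at least 100, equal totals, TMM, quantile normalization, arrayWeights, robust limma-trend, the replicate number as a block, and each library left out. All 32 members are named. Values in every library are given for members whose groups do not overlap, the 8 of smallest p, those whose difference of at least 0.3 turns without CCR6+ replicate 2, and the subunits. Nfkbia was added after its values were seen. Of each other pathway list the 4 genes of smallest p are named, and of each marker list the 2 of highest mean. Promoter sequences are from RefSeq (GRCm38.p6).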

Additional observations from a re-analysis of the deposited data

Results flagged for a closer look

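The 4 CCR6– libraries were searched, gene by gene over the 32 members, for 1 library lying apart from the rest. By chance about 5% of the sets would show one, and 3 of the 32 did. All sets share the same 4 libraries, so the flags are not independent, and the share over all genes was not computed. Traf2 was at 7924 normalised counts in CCR6– replicate 4 and between 3348 and 3908 in replicates 1 to 3. Traf5 was at 3536 in the same library and between 2092 and 2221 in replicates 1 to 3. That library was the highest of the 7 for 21.6% of all genes. Tnip1 was at 6726 in CCR6– replicate 1 and between 6165 and 6249 in replicates 2 to 4. The CCR6+ group, with 3 libraries, is too small for this search.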

How the results depend on the processing

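Of 672 values of the members under 21 other settings, 588 (87.5%) kept their sign and side of the threshold, 4 newly passed and 80, in 20 members, changed sign; 12 members never did. No gene passed in limma, against 1 with pseudocount 0.5, 2 with 8, 2 with a mean of at least 100, 1 with TMM, 4 with quantile normalization, 10 with robust limma-trend and 2486 with arrayWeights (weights 0.208 to 24.2, not fully converged). EdgeR passed 2 genes and DESeq2 679. With a library left out limma passed 0 to 1. Without CCR6+ replicate 2 edgeR passed 2 and DESeq2 184. Members that passed numbered 2 with arrayWeights (Ikbke and Malt1), 1 in DESeq2 (Ikbke) and 0 to 1 with a library left out (Malt1, DESeq2 without CCR6+ replicate 2). Members with groups apart numbered 2 to 7 with a library left out. Quantile normalization moved the median of all genes from 0.097 to -0.082. Sign changes on the log2 scale by setting were these, and their cause was not tested. Equal totals: Nfkb2 0.071, Traf1 0.015, Tnfaip3 0.020, Cyld 0.006. TMM: Nfkbie -0.051, Nfkbid -0.001, Bcl3 -0.073, Map3k14 -0.004, Bcl10 -0.068. Quantile: Nfkb2 0.115, Traf1 0.080, Tnfaip3 0.075, Cyld 0.078. ArrayWeights: Nfkb2 0.209, Relb -0.077, Nfkbib 0.066, Map3k14 -0.174, Traf2 0.023, Traf3 -0.085, Bcl10 -0.180, Tnfaip3 0.102. EdgeR: Nfkb2 0.018, Map3k14 -0.019, Bcl10 -0.072. DESeq2: Nfkb2 0.069, Bcl10 -0.008. With the replicate block, in which unpaired CCR6– replicate 4 has no weight, Nfkb2 was 0.031, Relb -0.060, Nfkbie -0.017, Bcl3 -0.071, Map3k14 -0.026 and Bcl10 -0.148; the block passed no gene. Deviations of each gene from its group mean correlated at -0.128, -0.112 and 0.342 between same-numbered libraries, so the numbers are not taken as pairs. The ranges of genes given next pool limma with each library left out and edgeR and DESeq2 without CCR6+ replicate 2. In limma alone Nfkb1 stayed above 0, at 0.029 to 0.376, and its -0.029 is from edgeR. With a library left out the ranges that crossed 0 were Nfkb1 -0.029 to 0.376, Nfkb2 -0.307 to 0.384, Rela -0.256 to 0.042, Relb -0.313 to 0.506, Nfkbia -0.090 to 0.495, Nfkbib -0.360 to 0.066, Nfkbie -0.233 to 0.395, Nfkbid -0.080 to 0.259, Bcl3 -0.460 to 0.566, Map3k14 -0.044 to 0.188, Traf1 -0.342 to 0.290, Traf3 -0.007 to 0.389, Birc2 -0.474 to 0.065, Birc3 -0.690 to 0.136, Ripk1 -0.380 to 0.154, Bcl10 -0.148 to 0.107, Tnfaip3 -0.272 to 0.155, Tnip1 -0.543 to 0.033 and Cyld -0.227 to 0.125, the ratio of Nfkb2 to Nfkb1 -0.682 to 0.344 and that of Relb to Rela -0.057 to 0.426. The lowest count of a member was 555 reads, so read depth limits these genes little.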
